A study of Mus musculus with 24 samples.

Results

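The effect of amnion epithelial cells on brain gene expression was measured as a main effect, 12 mice that received the cells against 12 that did not, with angiotensin II infusion as a second factor. All 24 mice of the series entered the comparison. They were male wild-type C57Bl6 mice, 8 to 12 weeks old, in 4 groups of 6: vehicle, angiotensin II, vehicle + amnion epithelial cells, and angiotensin II + amnion epithelial cells. Minipumps under the skin ran for 14 days with saline (the vehicle) or with angiotensin II, the latter dosed at 0.7 mg/kg/day, and the angiotensin II groups are labelled hypertensive. The cells, 1000000 per mouse, came from human term placentae and entered the tail vein just after pump implantation, and the other 12 mice received saline. RNA was taken from brain hemispheres at the end of the infusion. It therefore mixes all brain cells, and fewer cells of a type cannot be told apart from less RNA per cell. A total of 27286 of 54532 genes, those with a value above 0 in 6 mice or more, entered the test. Levels are in FPKM, fragments counted on a gene divided by its length and by the size of the library.

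Amnion epithelial cells line the fluid-filled sac around the foetus and are known for low immunogenicity and for releasing mediators that dampen inflammation and fibrosis. Cells placed in a tail vein first meet the capillaries of the lung, so an effect on the brain may be carried by blood, vessels, circulating leukocytes or blood pressure. Angiotensin II constricts vessels, raises blood pressure and activates vascular NADPH oxidases, endothelium and immune cells. The comparison asks which brain transcripts differed with the cells whatever was infused. A total of 35 gene lists, from brain cell types and blood cells to complement, chemokines, collagens and the renin-angiotensin system, were read in it.

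The largest median difference among these lists was in the list of neutrophil genes, which holds granule proteins, proteases, alarmins and a chemokine receptor. Proteins of the primary and specific granules are made while neutrophils mature in bone marrow, and their genes are known to be switched on by C/EBP factors and PU.1. The sequences before 4 of these genes are shown because these were the 4 of the list that stood higher in mice with cells at an unadjusted p under 0.05. Camp encodes cathelicidin, an antimicrobial peptide of specific granules, and lies on chromosome 9 from 109847379 to 109849617 (GRCm38). Ngp (chromosome 9, 110419747 to 110423012) encodes neutrophilic granule protein, and Ltf (chromosome 9, 111019271 to 111042767) encodes the iron-binding lactotransferrin. Elane (chromosome 10, 79886247 to 79888215) encodes neutrophil elastase, a serine protease of primary granules. The bases are those of the RefSeq promoter table (GRCm38.p6), in gene direction, and end at the base before the gene start in the deposited table. They cover chr9:109849618-109849706 on the minus strand for Camp, chr9:110419558-110419746 on the plus strand for Ngp, chr9:111019042-111019270 on the plus strand for Ltf and chr10:79886062-79886246 on the plus strand for Elane. Capitals mark matches, on either strand, to TTNNGNAA (a C/EBP motif) or GAGGAAG (a PU.1 motif).
Camp: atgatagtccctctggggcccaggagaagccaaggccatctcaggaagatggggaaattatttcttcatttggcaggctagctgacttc
Ngp: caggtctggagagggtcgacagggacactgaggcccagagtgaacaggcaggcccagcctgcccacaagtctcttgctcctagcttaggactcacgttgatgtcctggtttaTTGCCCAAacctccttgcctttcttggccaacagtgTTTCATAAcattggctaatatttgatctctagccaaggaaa
Ltf: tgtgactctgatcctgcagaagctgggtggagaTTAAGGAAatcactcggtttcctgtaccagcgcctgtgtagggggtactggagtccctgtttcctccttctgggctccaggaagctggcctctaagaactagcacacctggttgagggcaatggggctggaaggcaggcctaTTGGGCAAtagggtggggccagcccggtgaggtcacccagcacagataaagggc
Elane: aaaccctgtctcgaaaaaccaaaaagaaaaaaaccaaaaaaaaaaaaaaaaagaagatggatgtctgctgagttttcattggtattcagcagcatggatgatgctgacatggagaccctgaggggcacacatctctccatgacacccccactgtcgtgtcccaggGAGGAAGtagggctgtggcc
TTNNGNAA was found at 2 places in Ngp and 2 in Ltf, and GAGGAAG at 1 place in Elane, with no overlap between the motifs. Windows of the same length and position hold TTNNGNAA in 31.1% (Ngp) and 35.03% (Ltf) of the 32851 promoters of the table, and GAGGAAG in 7.52% (Elane). The Camp window of 89 bases held neither motif, which says nothing of the factors.

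Depth was 16536449 to 25308700 reads per mouse, and mitochondrial genes took 4.79 to 6.85% of reads. A set of 6 libraries stood apart in every group, with a total of 338334.5 to 348596.7 FPKM against 277115.9 to 298300.6 in the other 18. The first principal component, 57.6% of the variance, separated these 6. They were 3 mice with cells and 3 without, so the set was balanced over the main effect, but it was not balanced within infusions, with 2 vehicle against 1 vehicle + cell mice and 1 angiotensin II against 2 angiotensin II + cell mice. All libraries of the set were numbered 5 or 6 in their group, but angiotensin II mouse 6 and vehicle + cell mouse 5 were not in it. The labels do not name the set. Over all 276 pairs of libraries the chi-square of the reads was at least 2.72 per gene, above the 1 that sampling noise gives, so no pair was counted as 1 sample.

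**Figure D1:**
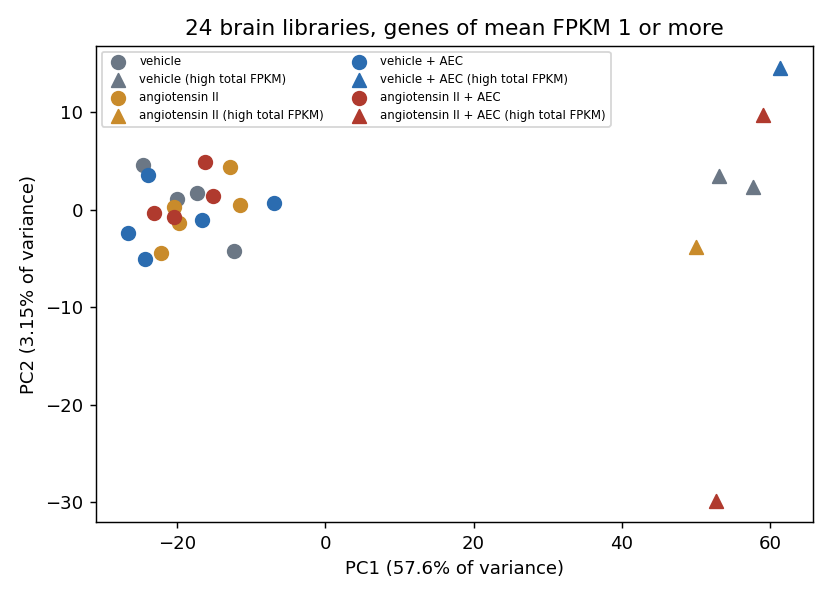
Scores of the 24 libraries on principal components 1 (57.6% of variance) and 2 (3.15%), from genes of mean FPKM of at least 1, coloured by group (AEC, amnion epithelial cells), with triangles for the 6 libraries of high total FPKM. The triangles stand to the right of all 18 circles, while mice with and without cells are mixed among both.

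No gene passed an adjusted p of 0.05 in the main effect (0 of 27286, 0%), and the lowest adjusted p was 1. At an unadjusted p under 0.05 there were 675 genes (2.47%), of which 283 (1.04%) were higher and 392 (1.44%) lower with cells. Most of these genes were barely detected: 507 of the 675 (75.1%) had a mean under 10 reads, against 36.9% of all tested genes, and 253 (37.5%) were protein coding, against 64.3%. Among the 13649 genes with a mean of at least 1 FPKM, 102 (0.747%) had an unadjusted p under 0.05, 42 higher and 60 lower, with a median absolute log2 fold change of 0.21 (1.15-fold). With the library set as a term, 1150 genes (4.21%) had an unadjusted p under 0.05, still with 0 at an adjusted p under 0.05, and 655 of the 675 were among them. Below, a gene is called higher or lower where its unadjusted limma p is under 0.05, and the p printed is that of a two-sided exact permutation test of the same 12 against 12 mice within infusions unless limma is named. In no gene did the 12 values with cells and the 12 without fail to overlap.

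**Figure D2:**
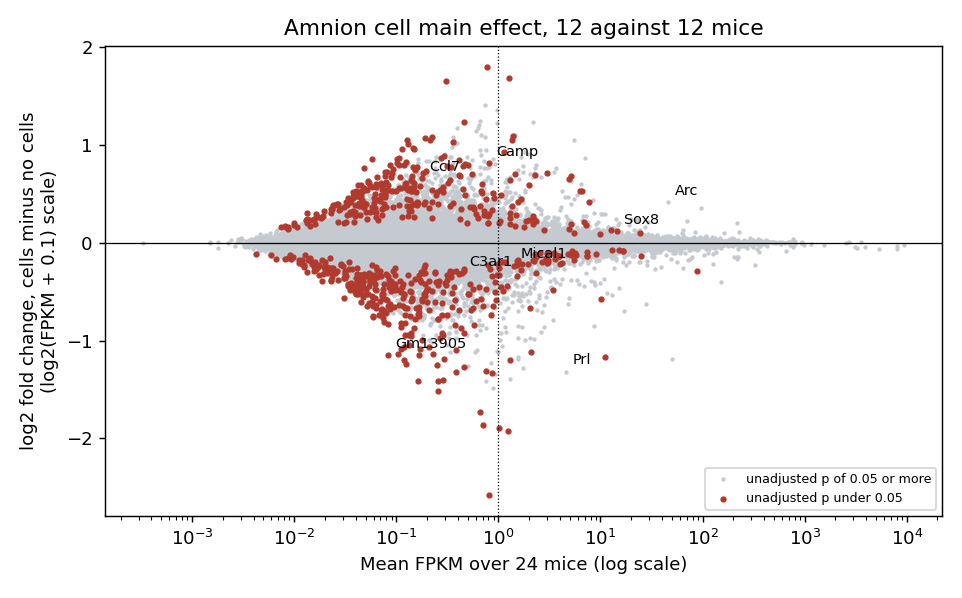
Mean FPKM over 24 mice (log axis) against the log2 fold change of mice with cells over mice without, on the log2(FPKM + 0.1) scale, for 27286 genes, with the 675 of unadjusted p under 0.05 in red and the dotted line at 1 FPKM. Most red points lie left of the line (573 of 675), and of those to its right 8 of 102 reach an absolute log2 fold change of 1.

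The width of the confidence intervals shows what size of effect the 12 against 12 design could have missed. For 75.2% of the 13649 genes at 1 FPKM or more the 95% interval of the fold change lay within 1.25-fold in either direction, for 94.1% within 1.5-fold and for 97.6% within 2-fold. Above 10 FPKM (4905 genes) these shares were 89.9%, 98.9% and 99.7%, and the median half-width of the interval was 1.12-fold, or 1.05-fold with the library set as a term. Between 0.1 and 1 FPKM (7520 genes) only 12.8% of intervals lay within 1.25-fold. Most chemokine, T cell and neutrophil transcripts are in or below that range, so a moderate difference in them was often not detectable at this depth.

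Of the 509 genes in the 35 lists, 503 were tested, and 14 (2.78%) had an unadjusted p under 0.05, 7 higher and 7 lower, against 2.47% of all genes. They fell in 8 lists, and the call of Trbc1 among the lower genes is in part set by the filter on mice above 0 (below). The median log2 fold change was under 0.1 in size in 33 lists, beside a median of -0.0027 over all tested genes. The exceptions were neutrophils (0.32) and hypothalamus and pituitary (-0.11). Over all tested genes 13164 had a fold change above 0 and 14122 below 0. Members of a list were read in the same mice, so their signs are not independent. Cfd, Il10, Ccl19, Cxcl2 and Pou5f1 were above 0 in too few mice, and Ahsp was not matched.

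**Figure D3:**
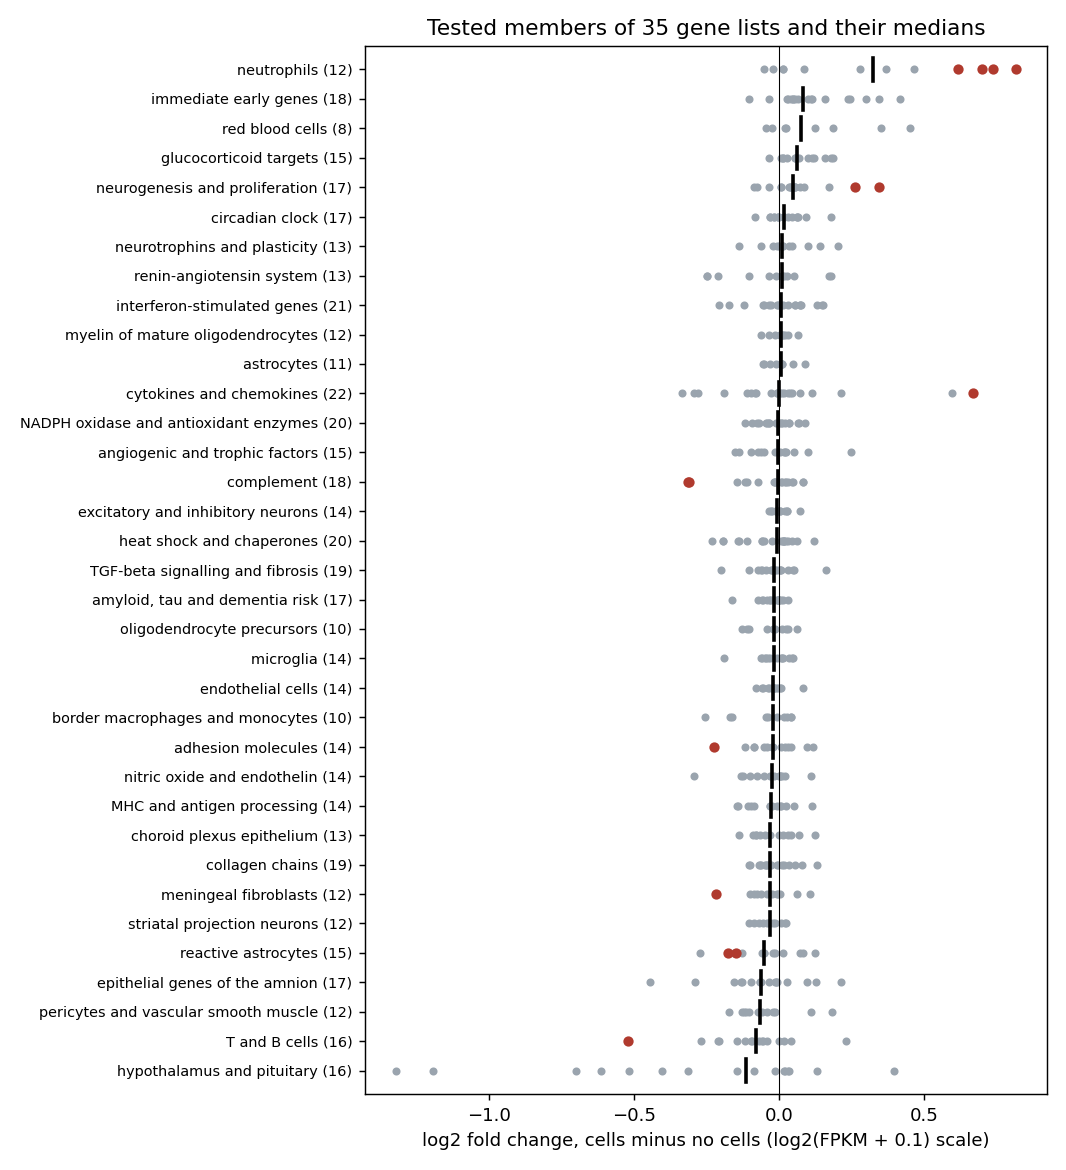
Log2 fold change of mice with cells over mice without for each tested member of 35 gene lists (points, red where the unadjusted p is under 0.05) with the list median (black bar) and the number tested in brackets. All but 2 medians lie within 0.1 of 0, with neutrophils at 0.32, and the widest spread is among hypothalamic and pituitary genes, down to -1.32 for Prl.

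Of 12 neutrophil genes, 10 had a fold change above 0 and 4 were higher at an unadjusted p under 0.05, where 1.04% of all genes were. Camp ranged from 0.0702 to 1.42 FPKM, median 0.433, without cells, and from 0.212 to 3.03, median 0.691, with cells. Means were 0.532 ± 0.407 (SD, n = 12) and 1.09 ± 0.96 (SD, n = 12). The groups overlapped, and 3 mice with cells, all infused with angiotensin II, exceeded every mouse without. The log2 fold change was 0.81 ± 0.35 (SE; exact p = 0.0380). Elane, at 0.113 ± 0.178 against 0.279 ± 0.321 FPKM, had a log2 fold change of 0.73 (exact p = 0.0392), Ngp, at 1.04 ± 0.788 against 1.88 ± 1.81 FPKM, of 0.70 (limma p = 0.0489, exact p = 0.0623), and Ltf, at 0.188 ± 0.0912 against 0.450 ± 0.479 FPKM, of 0.62 (exact p = 0.0468). S100a8, an alarmin subunit abundant in neutrophils, had 3.67 ± 1.88 FPKM without and 5.39 ± 3.60 with cells (log2 fold change 0.46, 95% interval -0.03 to 0.96). Other members had fold changes near 0, with log2 values of 0.08 for the chemokine receptor Cxcr2, -0.05 for the collagenase Mmp8, 0.01 for Mmp9 and -0.02 for the resistin-like Retnlg.

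The neutrophil difference rested on few mice. The summed FPKM of the 12 genes had the same median in both groups, 13.9, with 8.45 to 52.6 in mice with cells and 6.91 to 27.5 without. The highest sums were 52.6, 41.5 and 30.3, in mice 4, 6 and 1 of the angiotensin II + amnion epithelial cell group, followed by 27.5 in mouse 3 of the angiotensin II group. Without mouse 4 or mouse 6 of that group with cells, or mouse 2 of the angiotensin II group, 0 of 12 genes kept an unadjusted p under 0.05, although the list median stayed at 0.22, 0.25 and 0.22. The count was 1 without vehicle mouse 2 or vehicle + cell mouse 1, and 2 without vehicle mouse 1, angiotensin II mouse 1, 4 or 6 or angiotensin II + cell mouse 1, and it was 6 without angiotensin II mouse 3. In the 18 libraries alone it was 2. Blood in the tissue was read from red blood cell genes, which summed to 239.1, 258.0 and 247.8 FPKM in mice 1, 6 and 4 of the angiotensin II + amnion epithelial cell group, against a median of 170.4 over all mice with cells and 157.8 without. Some higher red cell sums stood beside lower neutrophil sums, mostly in libraries of high total FPKM. They were 309.4 and 15.1 FPKM in vehicle mouse 5, and 262.9 and 6.91 in vehicle mouse 6. In angiotensin II mice 5 and 6 they were 289.9 and 15.8, and 269.1 and 22.9. In angiotensin II + cell mouse 5 they were 272.8 and 16.4. Of these mice, all but angiotensin II mouse 6 had libraries of high total FPKM. Libraries of that set, angiotensin II + cell mouse 6 among them, had red cell sums of 226.8 to 309.4. Outside the set the highest red cell sums were 269.1, 247.8 and 239.1, in angiotensin II mouse 6 and angiotensin II + cell mice 4 and 1. Their neutrophil sums were 22.9, 52.6 and 30.3. The next red cell sum, 177.4 in vehicle + cell mouse 1, stood beside 18.7. Angiotensin II mouse 3 had 148.6 and 27.5. Perfusion of these brains is not given in the sources used here, and the part of blood in the neutrophil values was not tested.

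**Figure D4:**
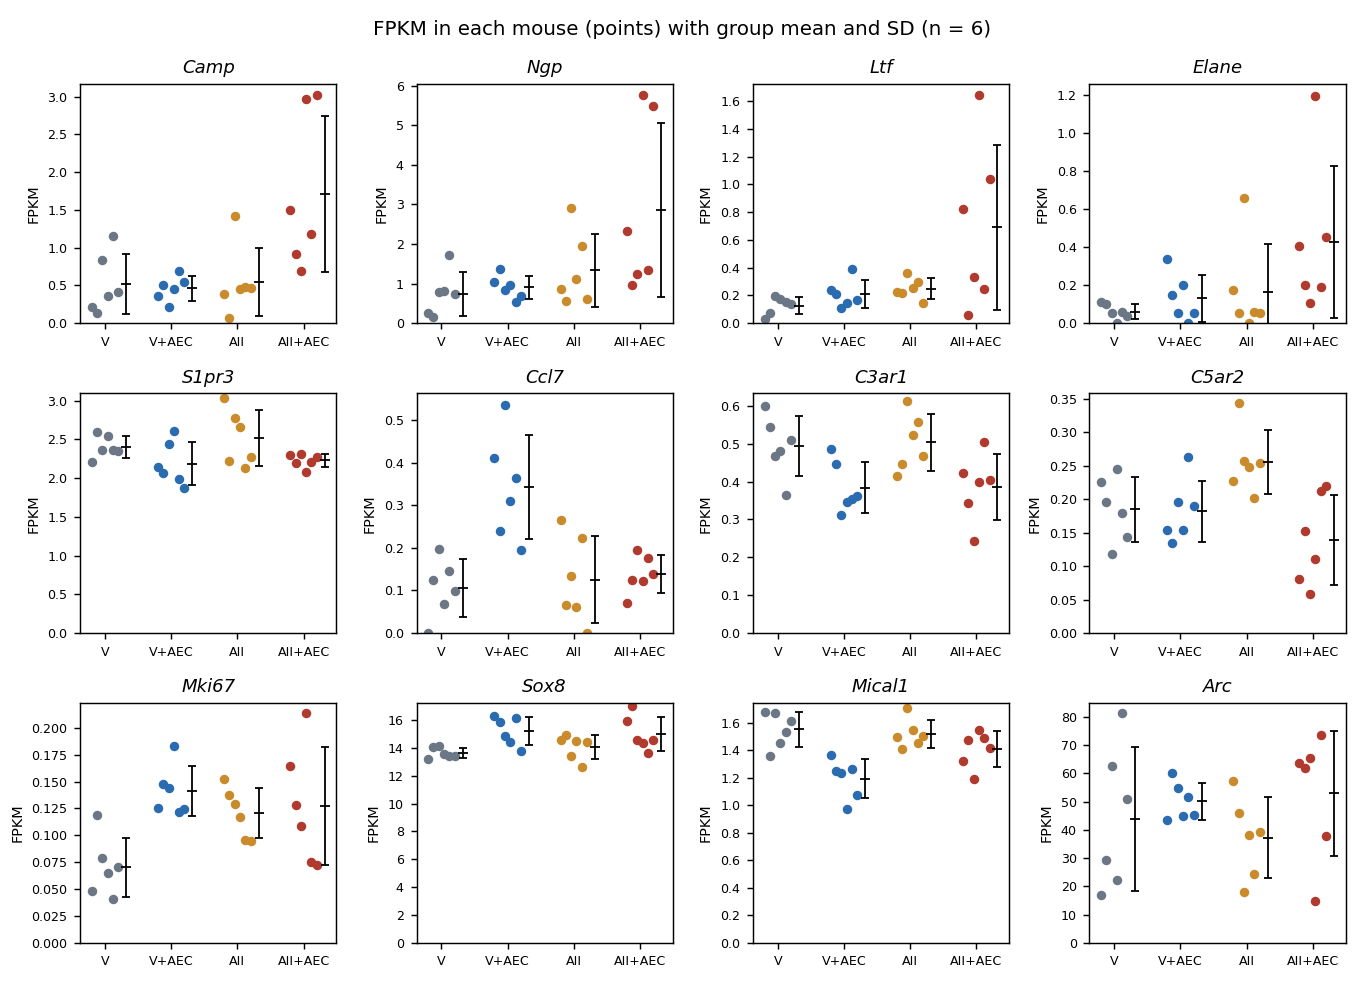
FPKM of 12 genes in each mouse (points, 6 per group) with the group mean and SD (bars); V, vehicle; AII, angiotensin II; AEC, amnion epithelial cells. Camp, Ngp, Ltf and Elane are each highest in 1 or 2 mice of the angiotensin II + AEC group (up to 3.03, 5.77, 1.65 and 1.19 FPKM), while C3ar1 is lower with cells under both infusions and Ccl7 and Mki67 have their larger difference in vehicle mice.

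None of 8 red blood cell genes was called, and 6 had a fold change above 0, with a list median of 0.07. Their summed level ran from 109 to 273 FPKM with cells and from 103 to 309 without, so that the highest sum was in a mouse without cells. Alas2, which starts haem synthesis in red cell precursors, had 0.742 ± 0.502 FPKM without and 1.03 ± 0.60 with cells (log2 fold change 0.45, exact p = 0.162). Hbb-bs, an adult beta-globin, had 50.0 ± 31.8 FPKM without and 48.3 ± 25.7 with cells (log2 fold change 0.02).

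Of 18 complement genes tested, 2 receptors of complement fragments were lower with cells, where 1.44% of all genes were. C3ar1 (chromosome 6, 122847138 to 122856161) encodes the receptor for the anaphylatoxin C3a and is expressed by microglia and other myeloid cells. It had 0.365 to 0.614 FPKM, median 0.496, without cells and 0.242 to 0.505, median 0.380, with cells, and 6 mice with cells lay below every mouse without. The log2 fold change was -0.31 ± 0.10 (SE; exact p = 0.00155), with -0.30 in vehicle mice and -0.32 in angiotensin II mice. The call was kept when any 1 mouse was left out and in the 18 libraries alone. C3ar1 was named for its low p-value in the same mice, which favours this, so it is no support. C5ar2, a second receptor for C5a, had 0.220 ± 0.0589 FPKM without and 0.160 ± 0.0595 with cells (log2 fold change -0.31 ± 0.14, SE; exact p = 0.0260), and the call was lost without angiotensin II mouse 2 or without angiotensin II + cell mouse 1, 3 or 4. The other 16 complement genes tested were not called. Cfb of the alternative pathway had a log2 fold change of -0.07, C3 of -0.11, and the C1q chains of microglia, C1qa, C1qb and C1qc, of 0.01, 0.05 and 0.01.

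Among 22 cytokines and chemokines, Ccl7 alone had an unadjusted p under 0.05, where 2.47% of all genes had. Ccl7 encodes a chemokine that draws monocytes through CCR2. It had 0 to 0.266 FPKM, median 0.111, without cells and 0.0712 to 0.536, median 0.195, with cells, from 22 and 44 reads in all (log2 fold change 0.67 ± 0.22, SE; exact p = 0.00751). Of mice with cells, 11 of 12 were above the median of those without. Ccl2, its close relative acting on the same receptor, had a log2 fold change of -0.33 at 1.75 reads per mouse, and Ccl8 of 0.60, neither of them called. Il1b, Il6 and Tnf had log2 fold changes of 0.05, -0.08 and 0.21, none of them called.

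Lymphocyte, macrophage and microglial genes gave little. Of 16 T and B cell genes, 13 had a fold change below 0. Trbc1 alone, a constant region of the T cell receptor beta chain, was called lower, where 1.44% of all genes were. Trbc1 had 2 reads in all with cells and 12 without (exact p = 0.0211), and was not called in the 18 libraries alone. With 2 reads, at most 2 mice with cells were above 0. Trbc1 therefore passed the filter on mice above 0 only through the mice without cells, so that it had to differ. Its call is in part set by the filter. Cd3e of the T cell receptor complex had 0.0526 ± 0.0300 FPKM without and 0.0474 ± 0.0306 with cells. Itgal, the alpha chain of the leukocyte integrin LFA-1, was lower among 14 adhesion molecules, where 1.44% of all genes were. Its log2 fold change was -0.22 (exact p = 0.0243), a call lost when any of 16 mice was left out. Of 14 microglial genes and 10 genes of border macrophages and monocytes none had an unadjusted p under 0.05. Their summed levels were 178 to 293 FPKM with and 178 to 287 without cells for microglia, and 6.87 to 8.79 with and 6.72 to 10.3 without for border macrophages and monocytes. Tmem119, a marker of resident microglia, had 10.3 ± 2.32 FPKM without and 10.1 ± 2.68 with cells, and its 95% interval on the log2 scale ran from -0.32 to 0.22. None of 21 interferon-stimulated genes or 14 genes of antigen presentation had an unadjusted p under 0.05.

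Of 15 reactive astrocyte genes, 2 were called lower, where 1.44% of all genes were. Aspg, an asparaginase, had 1.66 ± 0.22 FPKM without and 1.45 ± 0.142 with cells (log2 fold change -0.18 ± 0.07, SE; exact p = 0.0131). S1pr3, a sphingosine-1-phosphate receptor induced in reactive astrocytes, had 2.46 ± 0.267 without and 2.21 ± 0.20 FPKM with cells (-0.15 ± 0.06, SE; exact p = 0.0153). Both differences were small and the groups overlapped: 4 mice with cells lay below all mice without for S1pr3 and 2 for Aspg. The call for Aspg was lost without vehicle mouse 1 or angiotensin II mouse 3, and that for S1pr3 without angiotensin II mouse 1. Of the 15 genes, 11 had a fold change below 0. Gfap, the intermediate filament that marks reactive astrocytes, had 77.1 ± 10.8 FPKM without and 74.8 ± 15.0 with cells (log2 fold change -0.05, 95% interval -0.24 to 0.13), and Vim of -0.05.

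Neuronal and glial identity genes gave no call. None of 14 excitatory and inhibitory neuron genes, 12 striatal projection neuron genes, 11 astrocyte genes, 12 myelin genes or 10 oligodendrocyte precursor genes had an unadjusted p under 0.05. Fold changes of the neuron genes ran from -0.03 to 0.07 on the log2 scale. Myelin basic protein, Mbp, had 520 ± 97.5 FPKM without and 523 ± 111 with cells. Bdnf, the growth factor of synaptic plasticity, had 3.01 ± 0.369 FPKM without and 3.02 ± 0.279 with cells, with a 95% interval of -0.14 to 0.15 on the log2 scale, and none of the 13 neurotrophin and plasticity genes had an unadjusted p under 0.05. The 17 amyloid, tau and dementia risk genes gave none either, with a median of -0.02.

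Activity-regulated transcripts varied severalfold between mice of 1 group. Of 18 immediate early genes, which neurons switch on within minutes of firing, 16 had a fold change above 0, with a median of 0.08, and none had an unadjusted p under 0.05. Arc, a synaptic protein needed for memory consolidation, ranged from 17.0 to 81.5 FPKM, median 38.7, without cells and from 14.9 to 73.7, median 53.2, with cells (log2 fold change 0.42, 95% interval -0.13 to 0.96, exact p = 0.150). The lowest value of all was in a mouse with cells and the highest in a mouse without. Fos had 8.03 ± 3.71 FPKM without and 9.24 ± 2.08 with cells, and Npas4 had 4.44 ± 1.75 and 4.41 ± 1.13. Of 15 glucocorticoid targets, 14 had a fold change above 0, median 0.06, none with an unadjusted p under 0.05. Their median was 0.22 in vehicle mice and -0.11 in angiotensin II mice, or 0.13 and 0.01 with the library set as a term.

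Of 17 neurogenesis and proliferation genes, 2 were called higher, where 1.04% of all genes were. Mki67, present in dividing cells, had 0.0405 to 0.152 FPKM, median 0.0950, without cells and 0.0723 to 0.214, median 0.127, with cells (log2 fold change 0.26 ± 0.11, SE; exact p = 0.0229). Ccnb1, the mitotic cyclin B1, had a log2 fold change of 0.34 ± 0.16 (SE; exact p = 0.0430), a call lost when any of 11 mice was left out. The call for Mki67 was lost without vehicle mouse 1 or 5, vehicle + cell mouse 4 or angiotensin II + cell mouse 4. The other 15 genes were not called: Top2a, also a marker of dividing cells, had a log2 fold change of 0.04, Cdk1 of -0.08, and Dcx, a microtubule protein of young neurons, of 0.03.

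Vascular, fibrotic and blood pressure systems gave a single call. Of 14 endothelial, 12 pericyte and smooth muscle, 19 collagen, 19 TGF-beta and fibrosis, 14 nitric oxide and endothelin, 20 NADPH oxidase and antioxidant, 15 angiogenic and 13 renin-angiotensin genes none had an unadjusted p under 0.05. Agt, the angiotensin precursor made by astrocytes, had 55.01 ± 9.09 FPKM without and 54.7 ± 10.2 with cells, and Ace, the angiotensin-converting enzyme, had 6.42 ± 0.519 and 6.25 ± 0.411. Agtr1a, the main receptor for angiotensin II, had 0.158 ± 0.0769 and 0.186 ± 0.0672 FPKM. Col1a1 had a log2 fold change of -0.04 with a 95% interval of -0.43 to 0.35. Cldn5 of endothelial tight junctions had 48.1 ± 12.6 FPKM without and 47.7 ± 15.8 with cells. Of 12 meningeal fibroblast genes, Lum, encoding the matrix proteoglycan lumican, was lower, where 1.44% of all genes were. Its log2 fold change was -0.22 ± 0.10 (SE; exact p = 0.0322), a call lost when any of 14 mice was left out. Choroid plexus, chaperone and circadian clock genes gave no call.

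No mouse orthologue of the epithelial and amnion genes was called higher with cells. These values do not measure the injected human cells themselves. The 18 orthologues, of which 17 were tested, summed to 10.9 to 13.9 FPKM with cells and 10.7 to 14.03 without. None of the 17 had an unadjusted p under 0.05. Krt18 and Krt8, keratins of simple epithelia, had log2 fold changes of -0.01 and -0.29, and Cdh1, the epithelial cadherin, of -0.06. Epcam had the largest, -0.44 (exact p = 0.102), with the highest value in mouse 4 of the angiotensin II group, without cells. That mouse also stood apart in pituitary hormones, with 102 FPKM of Prl, prolactin, against at most 1.93 in the other 23 mice. Its hypothalamus and pituitary genes summed to 1691 FPKM, and without it the median fold change of that list was -0.03. The values count fragments on mouse genes, and no human transcript was measured as such.

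Among genes of at least 1 FPKM, the 20 named for their low p-values had absolute log2 fold changes of 0.10 to 0.66, except Mir6929. Mical1, an actin-oxidising enzyme (chromosome 10, 41476314 to 41487032), had 1.36 to 1.70 FPKM, median 1.52, without cells and 0.970 to 1.55, median 1.29, with cells. Of mice with cells, 7 lay below every mouse without (log2 fold change -0.23 ± 0.07, SE; exact p = 0.000372). Its reads cannot be told apart from those of the overlapping Smpd2, since use of strand is not given in the sources used here. Sox8, a transcription factor of the oligodendrocyte lineage (chromosome 17, 25565892 to 25570686), had 12.7 to 14.9 FPKM, median 13.8, without and 13.6 to 17.0, median 14.7, with cells, and 5 mice with cells lay above every mouse without (0.12 ± 0.04, SE; exact p = 0.00307). Pgm5, a phosphoglucomutase-like protein of adherens junctions, was lower (-0.23, exact p = 0.00156), as were Nmral1 (-0.20, exact p = 0.00703), Zfp729b (-0.19, exact p = 0.00196), BC017158 (-0.13, exact p = 0.00439), Wdr4, a subunit of a tRNA methyltransferase (-0.10, exact p = 0.00229), and Gm3764 (-0.13, exact p = 0.0171). Fam43a (0.18, exact p = 0.00495), 1700030J22Rik (0.22, exact p = 0.00985) and Gzmm, the granzyme M of cytotoxic lymphocytes (0.29, exact p = 0.0111), were higher. The other higher genes were the pseudogenes CT025671.2 (0.45) and Gm13552 (0.59) and the transcripts 5930409G06Rik (0.42), 4930473A02Rik (0.38; antisense to other genes), Gm10591 (0.66) and BC002059 (0.19). The other lower genes were Gm3435 (-0.34), 2210408F21Rik (-0.20) and Mir6929. Mir6929 had 10 reads in all with and 22 without cells, and its fitted log2 fold change of -1.89 depends on the pseudocount, since 7 mice with cells and 1 without were at 0. Of the 20, 9 overlap another gene in the annotation, so that their reads may be shared. All 20 kept an unadjusted p under 0.05 when any 1 mouse was left out. Their choice by lowest p-value in the same mice favours this, so it is no support for them.

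The lowest p-values of all belonged to transcripts near the limit of detection. Gm13905, a lincRNA on chromosome 2 (101872175 to 101883256), had 0 reads in all 12 mice with cells and 21 reads over the 12 without, 3 of which were also at 0. Gm17163, antisense to Ccdc13, had 2 reads with and 19 without cells, Gm47698 had 4 and 25, and Mir7022 had 4 and 19. Mir7022 is a short gene within Fbxo6, and reads on it are not mature miRNA. Anks4b, a scaffold protein of epithelial brush borders, had 21 reads in all with and 67 without cells (exact p = 0.000679). The 4 genes other than Anks4b had a median of 0 reads with cells, with 0 to 3 of those 12 mice above 0. They passed the filter of 6 mice only through the mice without cells, so that they had to differ, and their place among the lowest p-values is in part set by the filter. A count of 3 reads or fewer in a mouse cannot be told from 0.

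The effect of the cells was also read under each infusion. At an unadjusted p under 0.05 there were 658 genes (2.41%) in vehicle mice and 694 (2.54%) in angiotensin II mice, none with an adjusted p under 0.05, and 37 were shared, of which 18 had the same direction. The interaction gave 692 genes (2.54%), with a lowest adjusted p of 0.0897. Of the 675 genes of the main effect, 29 had an interaction p under 0.05.

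Of the 14 list genes, 4 had an unadjusted interaction p under 0.05 (limma), none after adjustment. Genes chosen for both a main effect and an interaction must differ under 1 infusion more than under the other, so their values by infusion are given as a description, with no test. The cell difference in Camp was 1.57 ± 0.46 (SE, log2) in angiotensin II mice, with 0.0702 to 1.42 FPKM (median 0.458) without and 0.688 to 3.03 (median 1.34) with cells. In vehicle mice it was 0.06 ± 0.46, with medians of 0.387 and 0.483 FPKM. C5ar2 had medians of 0.251 FPKM without and 0.131 with cells in angiotensin II mice (-0.61 ± 0.18), and of 0.188 and 0.172 in vehicle mice (-0.01 ± 0.18).

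Ccl7 and Mki67 had their larger difference in vehicle mice. Ccl7 had 0 to 0.198 FPKM (median 0.111) in vehicle mice and 0.195 to 0.536 (median 0.337) in vehicle + cell mice, a log2 difference of 1.14 ± 0.29, against 0.19 ± 0.29 under angiotensin II. Mki67 had 0.0405 to 0.119 FPKM in vehicle mice and 0.122 to 0.183 in vehicle + cell mice (0.51 ± 0.15), so that these 6 and 6 did not overlap, which held for 17 of all 27286 tested genes in either direction (0.0623%). Random labels of cells give such a split with a probability of 0.00216 per gene, which is above that share. Mki67 was chosen by its values in these mice, so the split is a description. Under angiotensin II the difference in Mki67 was 0.01 ± 0.15. With the library set as a term, which is uneven within infusions, all 4 interactions kept an unadjusted p under 0.05. Their choice by interaction p in the same mice favours this, so it is no support for them.

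**Figure D5:**
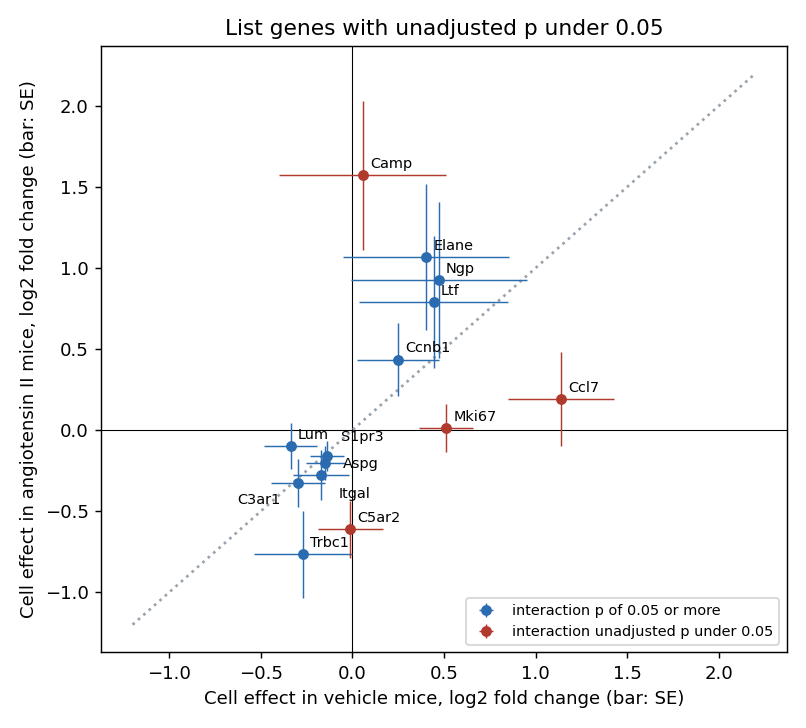
Log2 fold change of the cells in vehicle mice (x axis) against that in angiotensin II mice (y axis) with SE bars, for the 14 list genes of unadjusted p under 0.05 in the main effect; the dotted line marks equal effects. C3ar1 lies close to the line (-0.30, -0.32), Camp (0.06, 1.57) far above it, and Ccl7 (1.14, 0.19) and Mki67 (0.51, 0.01) below it.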

How the data were processed

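Brain RNA of 24 mice was sequenced, and the authors deposited a table of FPKM per gene and mouse with gene lengths and GRCm38 coordinates. The submitters' processing notes name DESeq 1.10.1. Aligner, read counter and strand setting are not given in the sources used here. Every column was matched to a mouse by its title. FPKM multiplied by gene length gave whole reads for 100% of values in every mouse, and these totals set the precision of each value. Counts of reads and limits at 3 reads cover counting error only.

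Genes above 0 in at least 6 mice were tested in R 4.3.3 with limma 3.58.1 (eBayes with a trend) on log2(FPKM + 0.1), cells and infusion as factors, two-sided, with Benjamini-Hochberg adjustment. Fold changes are on that scale, which understates those of low genes. The interaction and the cell effect under each infusion came from a fit of 4 group means. For single genes the labels of cells were permuted within infusions in an exact test over all 853776 splits, whose smallest p is 2.34e-06. The labels do not say that mice came from separate litters or days, so p-values measure the spread between these samples.

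Named genes were the 10 higher and 10 lower of lowest p at a mean of 1 FPKM or more, the 5 of lowest p among all tested genes, every list member with an unadjusted p under 0.05 and, in a list with none, the member of largest fold change. Genes outside this rule were named as examples after their values were seen. The comparison, the lists and the library set were chosen with earlier results of these data known. A single list gene is not reported here and was left out of its list. Promoter bases came from the RefSeq table and matched all 4 genes shown. Alternatives were a pseudocount of 1 or 0.01, no filter, a mean of at least 1 FPKM, a replicate block, rescaling, voom on recovered reads, array weights, the library set as a term, the 18 other libraries alone, group means and each mouse left out. The fits were tested on simulated counts without a library set, so that test does not cover the spread the set adds to these data. Tables and plots used Python 3.11.15, pandas 2.3.3, numpy 2.4.6, scipy 1.17.1 and matplotlib 3.10.9.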

Additional observations from a re-analysis of the deposited data

Results flagged for a closer look

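Single mice stood apart from the other 5 of their group by Dixon's test in 7 of 137 groups of 6, those of 38 named genes. Chance flags about 1 in 20 groups, or 6.85 of 137. The lowest values were 0.754 FPKM of 5930409G06Rik in vehicle mouse 5, 1.31 of Gzmm in angiotensin II + amnion epithelial cells mouse 3, 2.14 of 2210408F21Rik in vehicle + amnion epithelial cells mouse 2 and 0 of Mir7022 in vehicle mouse 2. The highest were 2.35 of 4930473A02Rik and 11.8 of Gm10591, both in angiotensin II + amnion epithelial cells mouse 5, and 0.554 of Gm17163 in angiotensin II mouse 5.

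The effect of the cells differed between infusions, at an unadjusted interaction p under 0.05, in 4 named genes. The difference of the log2 fold changes, angiotensin II minus vehicle, was 1.52 for Camp, -0.60 for C5ar2, -0.95 for Ccl7 and -0.50 for Mki67, with limma p-values of 0.0284, 0.0255, 0.0296 and 0.0249. None passed adjustment over all tested genes.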

How the results depend on the processing

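No alternative gave a gene with an adjusted p under 0.05 in the main effect. The number of genes at an unadjusted p under 0.05, 675, was 107 of 13649 with the mean FPKM filter, 1314 with array weights, 1150 with the library set as a term, 1196 in the 18 libraries alone and 626 to 719 with 1 mouse left out. The 692 genes of the interaction became 118, 1282 and 1146 with the filter, array weights and the 18 libraries, and 617 to 1244 with 1 mouse left out, the highest without vehicle + amnion epithelial cells mouse 6. At an adjusted p under 0.05 the interaction had 1 gene with array weights. In vehicle mice the 658 genes became 105, 1331 and 1140, and 590 to 1188 with 1 mouse left out, again highest without that mouse. In angiotensin II mice the 694 genes became 119, 1282 and 1259, and 1063 with the library set as a term, and ranged over 612 to 887 with 1 mouse left out. Of the 12 neutrophil genes, of which 4 were called higher, the number called higher was 2 with a pseudocount of 1, 1 with the mean FPKM filter (4 members tested), 2 in the 18 libraries and 0 to 6 with 1 mouse left out. The cause of these moves was not tested, except that the filter leaves fewer genes.

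Whether replicate numbers pair the mice is not given by the labels. Deviations of same-numbered mice of different groups correlated at -0.22 to 0.80 (median 0.35, 28 of 36 pairs over 0.1) and those of differently numbered mice at -0.69 to 0.81 (median 0.07, 88 of 180 over 0.1), and 5 of 24 mice correlated best with their own number, so the numbers were not taken as pairs. Pairs within the set of high total FPKM, all numbered 5 or 6, correlated at 0.69 to 0.80 where same-numbered and at 0.70 to 0.81 otherwise. With a replicate block the counts were 834 for the main effect, 1416 for the interaction and 1036 in vehicle mice. Over 2283 results of named genes under alternatives none reversed, 105 lost and 24 gained an unadjusted p under 0.05. Depth limits genes under 1 FPKM most.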
